A study of Mus musculus with 6 samples.

Results

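Cholangiocyte marker genes are described here in whole-liver RNA of mice that lack Nogo, the reticulon protein encoded by Rtn4. The set was chosen by name, with earlier results of these data known. It holds 9 of the 54232 genes of the count table, namely Epcam, Krt19, Krt7, Sox9, Spp1, Pkhd1, Clu, Atp1b1 and Cftr. Livers came from 3 Nogo-/- mice (knockout 1, 2 and 4, after their labels) and 3 wild-type littermates (wild type 2, 4 and 11). All 6 mice were 8 weeks old and were fed normal chow, and the labels name no other allele or agent. The labels do not say which part of the gene was removed. The study's title asks how Nogo deficiency affects the insulin signalling pathway.

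Cholangiocytes are the epithelial cells that line the bile ducts. They form a small part of the liver, modify bile by secreting chloride, bicarbonate and water, and carry a primary cilium that senses flow. Adult cholangiocytes keep the transcription factor SOX9 and the keratins of simple ducts, and most cholangiocyte markers are also made by at least some other cells. In whole-liver RNA, fewer cells of a type and less RNA per cell cannot be told apart.

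Libraries held 17568223 to 20902369 counts, and 13304 genes passed the filter on low counts. Rtn4 stood at 4.64 to 8.22 CPM (counts relative to the TMM-scaled library size) in knockout and at 40.5 to 56.0 CPM in wild type, so each library had the Rtn4 level of its labelled genotype. The hepatocyte list (Alb, Ttr, Apoa1 and 11 others) summed to 99280 to 141600 CPM in knockout and 111500 to 131900 CPM in wild type. Mitochondrially encoded genes took 28.6%, 19.7% and 11.8% of counts in knockout 1, 2 and 4, and 6.17% to 6.90% in wild type. Over all tested genes 2268 (17.0%) passed an adjusted p of 0.05, with 8.76% higher and 8.29% lower in knockout. Scaling by library totals gave 690 higher and 1566 lower genes, against 1165 and 1103 with TMM.

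Among the cholangiocyte markers, Epcam, Pkhd1, Clu and Atp1b1 fell in knockout liver, to 0.405 to 0.485 of their wild-type levels, and none rose. Krt19, Krt7, Sox9 and Spp1 did not pass the test, and Cftr had too few counts to be tested. Thus 4 of the 8 members that passed the low-count filter were called (edgeR quasi-likelihood test, Benjamini-Hochberg adjusted p under 0.05), against 17.0% of all tested genes. The median log2 fold change of these 8 was −0.68, and that of all tested genes was 0.01. The members, like the gene lists below, were chosen with earlier results of these data known, so such comparisons are a description. Each of the 8 had at least 12 counts in every library. In the same 4 genes the knockout levels all lay below the wild-type levels, an arrangement found in 19.2% of all tested genes (38.9% in either direction).

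**Figure D1:**
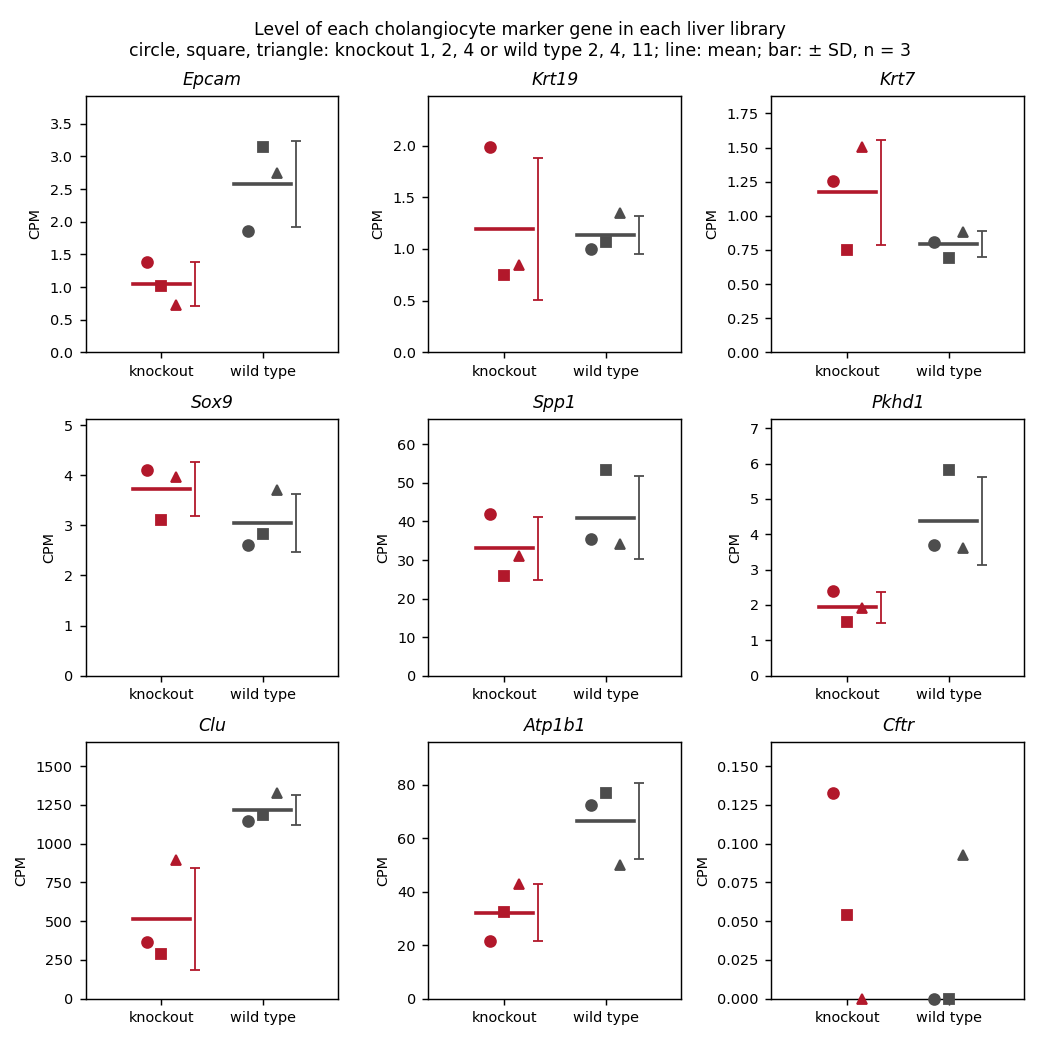
CPM (vertical axis, linear from 0) of each of the 9 genes in the 3 knockout and 3 wild-type libraries, with the mean as a line and ± SD as a bar (n = 3, no mean or bar for Cftr). Knockout points lie below every wild-type point for Epcam, Pkhd1, Clu and Atp1b1, and mix with them for the other genes.

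Epcam encodes a homophilic adhesion molecule of simple epithelia that in adult liver marks bile duct cells. It is a protein-coding gene of the plus strand of chromosome 17, with mm10 start 87635979 and end 87651129. Its level was 1.39, 1.02 and 0.722 CPM in knockout 1, 2 and 4, and 1.85, 3.15 and 2.74 CPM in wild type 2, 4 and 11. The highest knockout library stayed below the lowest wild-type library. The means were 1.04 ± 0.33 CPM in knockout and 2.58 ± 0.66 CPM in wild type (SD, n = 3 each). The log2 fold change was −1.30 ± 0.38 (SE; edgeR, adjusted p = 0.0407). Behind these levels stood 52 counts over the knockout libraries and 157 over the wild-type libraries, with exact Poisson 95% intervals of 38.8 to 68.2 and 133 to 184, which cover counting error only. The call was lost in each of the 6 fits that left out 1 library (adjusted p = 0.0572 to 0.154), in which the log2 fold change was −1.56 to −1.11.

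Pkhd1 encodes fibrocystin, a large protein of the primary cilium whose loss gives recessive polycystic kidney disease with malformed bile ducts. It occupies 20057779 to 20618064 of chromosome 1 on the minus strand (mm10), and 4 other annotated genes overlap it. Levels in knockout 1, 2 and 4 were 2.38, 1.50 and 1.93 CPM, against 3.70, 5.81 and 3.62 CPM in wild type 2, 4 and 11. All knockout livers were lower than all wild-type livers, and wild type 4 was the highest library. Pkhd1 averaged 1.94 ± 0.44 CPM in knockout and 4.38 ± 1.24 CPM in wild type (SD, n = 3 each). It fell by 1.18 on the log2 scale with an SE of 0.32 (edgeR, adjusted p = 0.0323), and kept its call without knockout 4 or wild type 11 but not without any of the other 4 libraries. Atp1b1, described next, behaved the same way.

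Atp1b1 encodes the beta1 subunit of the Na,K-ATPase, the pump that exports sodium from cells, and the pump needs this subunit to reach the plasma membrane. Duct cells and hepatocytes both use this pump. The gene sits on the minus strand of chromosome 1, with mm10 start 164437109 and end 164458355. Its level was 21.5, 32.4 and 42.7 CPM in knockout 1, 2 and 4, and 72.3, 76.8 and 50.1 CPM in wild type 2, 4 and 11. The gap between the groups was narrow, from knockout 4 to wild type 11. The log2 fold change was −1.04 ± 0.26 (SE; edgeR, adjusted p = 0.0243), with means of 32.2 ± 10.6 CPM in knockout and 66.4 ± 14.3 CPM in wild type (SD, n = 3 each). Nme7 overlaps it on the other strand and 15.8% of the 50-base words of Atp1b1 occur in transcripts of other genes, so reads could be shared if the counting ignored strand. Nme7 itself had a mean of 1.70 CPM in knockout and 3.55 CPM in wild type.

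Clu encodes clusterin, also called apolipoprotein J, a secreted chaperone that hepatocytes make as well as duct cells. The gene sits on the plus strand of chromosome 14, with mm10 start 65968483 and end 65981547. Clu was at 364.8, 290.2 and 894.2 CPM in knockout 1, 2 and 4, and at 1146, 1182 and 1325 CPM in wild type 2, 4 and 11. Knockout 4 lay nearer to wild type than to the other knockout livers. Clu averaged 516 ± 329 CPM in knockout and 1218 ± 94.9 CPM in wild type (SD, n = 3 each), and its log2 fold change was −1.24 ± 0.37 (SE; edgeR, adjusted p = 0.0426). Without knockout 4 the change was −1.91 ± 0.17 (adjusted p = 0.000216), and leaving out any other library ended the call.

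The promoters of genes that fell together are shown as far as RefSeq (GRCm38.p6) supplied them, which it did for 3 of these 4 genes. Each line is the 250 bases before the transcription start, read 5′ to 3′ on the strand of the gene, from chr1:20618058-20618307 for Pkhd1, chr17:87635729-87635978 for Epcam and chr1:164458356-164458605 for Atp1b1.
Pkhd1: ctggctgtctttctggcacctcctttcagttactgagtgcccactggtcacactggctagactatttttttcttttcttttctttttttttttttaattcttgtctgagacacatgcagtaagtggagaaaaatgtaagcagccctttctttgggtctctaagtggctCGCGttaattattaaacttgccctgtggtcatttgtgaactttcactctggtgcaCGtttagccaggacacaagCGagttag
Epcam: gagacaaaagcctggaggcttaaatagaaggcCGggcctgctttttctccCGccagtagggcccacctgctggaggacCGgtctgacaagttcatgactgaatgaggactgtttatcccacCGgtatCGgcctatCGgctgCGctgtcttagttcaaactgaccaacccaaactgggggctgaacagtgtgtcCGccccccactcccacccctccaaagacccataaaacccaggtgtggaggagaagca
Atp1b1: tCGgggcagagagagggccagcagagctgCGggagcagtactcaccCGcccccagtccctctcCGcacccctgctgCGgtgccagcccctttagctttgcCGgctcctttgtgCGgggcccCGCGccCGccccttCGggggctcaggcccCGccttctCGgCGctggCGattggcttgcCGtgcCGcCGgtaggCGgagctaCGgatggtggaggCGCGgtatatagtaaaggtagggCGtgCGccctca
Capitals mark CG dinucleotides, of which the windows of Pkhd1, Epcam and Atp1b1 held 4, 8 and 24, where the median of 27025 promoter windows of the same length was 6. Fewer CG dinucleotides than in Atp1b1 were found in 88.3% of all windows, and the shares for Epcam and Pkhd1 were 56.6% and 38.1%. A search on both strands found neither GGAATG (TEAD, the partners of YAP) nor TGGGAA (RBPJ, the effector of Notch) in these windows. Of all windows 12.6% and 21.5% held them. The windows of Krt7, Spp1 and Cftr, which were not among the genes that fell, also held neither. Their CG dinucleotides numbered 16, 3 and 30.

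The ductal keratins Krt19 and Krt7 did not pass the test in either direction. Krt19, the type I keratin that is used most often to stain bile ducts, had 1.99, 0.752 and 0.842 CPM in knockout 1, 2 and 4, against 0.997, 1.07 and 1.35 CPM in wild type 2, 4 and 11. Knockout 1 was the highest of all libraries and the other knockout livers were the lowest. The log2 fold change was 0.05 ± 0.45 (SE; edgeR, adjusted p = 0.946), with a 95% interval of −0.95 to 1.05, so its sign is not settled: it turned to −0.52 without knockout 1 and to −0.16 with library totals. Krt7, a type II keratin found in duct cells, had 1.26, 0.752 and 1.50 CPM in knockout and 0.807, 0.693 and 0.882 CPM in wild type. The groups overlapped through knockout 2, and the fold change of 0.55 ± 0.41 had a 95% interval of −0.36 to 1.45 (edgeR, adjusted p = 0.374). Counts were few, 14 to 30 for Krt19 and 14 to 25 for Krt7 in knockout, against 20 to 29 and 13 to 19 in wild type.

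Sox9 encodes a transcription factor that specifies bile ducts and is also found in some hepatocytes beside the portal tract. Its level was 4.11, 3.11 and 3.97 CPM in knockout 1, 2 and 4, and 2.61, 2.83 and 3.72 CPM in wild type 2, 4 and 11. Wild type 11 lay within the knockout range. Sox9 gave a log2 fold change of 0.29 ± 0.28 (SE; edgeR, adjusted p = 0.498), with a 95% interval of −0.33 to 0.90. Spp1 encodes osteopontin, a secreted ligand of integrins and CD44 that duct cells and activated macrophages make. It stood at 42.0, 25.9 and 31.0 CPM in knockout and at 35.4, 53.3 and 34.1 CPM in wild type. The groups overlapped, and the fold change of −0.31 ± 0.24 had a 95% interval of −0.83 to 0.21 (edgeR, adjusted p = 0.383). The intervals of Krt19, Krt7, Sox9 and Spp1 all ended above the fold changes of Epcam, Pkhd1, Clu and Atp1b1, which carry errors of their own, and the differences between genes were not tested.

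Cftr encodes the apical chloride channel that drives ductal secretion. It had 2, 1 and 0 counts in knockout 1, 2 and 4, and 0, 0 and 2 counts in wild type 2, 4 and 11. A count of 0 allows up to 0.181 CPM in knockout 4 and up to 0.16 CPM in wild type 4, taking 3 counts as the limit. No difference in Cftr was detectable at this depth.

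Per kilobase of exon, Clu was the highest member in both genotypes, with 150 ± 95.8 CPM per kb in knockout and 354 ± 27.6 CPM per kb in wild type (SD, n = 3 each). Next came Spp1, with 20.0 ± 4.99 in knockout and 24.8 ± 6.53 in wild type, and then Atp1b1, with 10.5 ± 3.45 in knockout and 21.6 ± 4.64 in wild type (CPM per kb). Spp1 and Atp1b1 overlapped in wild type but not in knockout. Epcam had a lower mean than Sox9 and Krt19 in knockout, at 0.476 ± 0.15 CPM per kb, and a higher one in wild type, at 1.18 ± 0.30 CPM per kb. Neighbours among these 3 genes overlapped in both genotypes. Pkhd1 was at 0.135 ± 0.031 CPM per kb in knockout and 0.306 ± 0.087 in wild type, and Cftr was last in both genotypes. Krt7 and Pkhd1 were neighbours above Cftr and overlapped in knockout but not in wild type. Exon length here was the union of all annotated exons of a gene, 7049 bases for Krt7 and 1855 for Krt19. A gene whose transcripts use only part of that union is placed too low, so the order of the members depends on the annotation.

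Clu alone supplied 81.6% to 91.5% of the summed CPM of the members in knockout and 89.2% to 93.2% in wild type. The sum was 440, 356 and 977 CPM in knockout 1, 2 and 4, and 1263, 1326 and 1422 CPM in wild type 2, 4 and 11. Without Clu, Spp1 and Atp1b1, the members that hepatocytes or macrophages also make in quantity, the sum was 11.3, 7.20 and 8.97 CPM in knockout and 9.97, 13.6 and 12.4 CPM in wild type. In this sum the genotypes overlapped: its members Epcam and Pkhd1 fell in knockout, and its members Krt19, Krt7 and Sox9 did not pass the test.

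The contrast between the members can be read inside each library as a ratio of raw counts, which no scaling between libraries can change. The pairs were chosen after the values were seen, so the ratios are a description. Epcam per Krt19 was 0.70, 1.36 and 0.857 in knockout 1, 2 and 4, and 1.86, 2.95 and 2.03 in wild type 2, 4 and 11. Pkhd1 per Sox9 was 0.581, 0.483 and 0.485 in knockout and 1.42, 2.06 and 0.975 in wild type. In each case every knockout liver had fewer Epcam or Pkhd1 counts for each count of its partner than any wild-type liver. By contrast Epcam per Pkhd1 overlapped, at 0.583, 0.679 and 0.375 in knockout and 0.50, 0.541 and 0.756 in wild type, as did Krt19 per Krt7. Clu per Spp1 overlapped too, at 8.68, 11.2 and 28.8 in knockout and 32.4, 22.2 and 38.9 in wild type. Atp1b1 per Spp1 did not overlap, at 0.5102 to 1.376 in knockout and 1.44 to 2.044 in wild type. Clu per count of the hepatocyte gene Alb did not overlap either, at 0.005783 to 0.01277 in knockout and 0.0167 to 0.01936 in wild type.

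**Figure D2:**
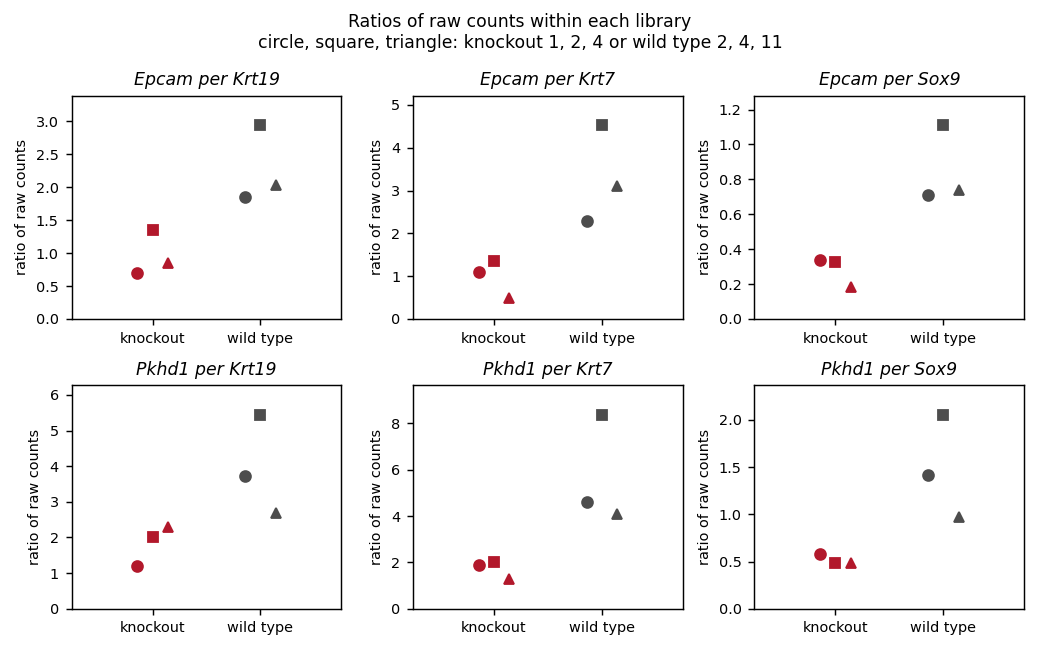
Ratios of raw counts (vertical axis, linear from 0) of Epcam or Pkhd1 to Krt19, Krt7 or Sox9 in each of the 3 knockout and 3 wild-type libraries, 1 point per library. All knockout points lie below all wild-type points in the 6 panels, for instance 0.182 to 0.339 Epcam counts per Sox9 count in knockout and 0.709 to 1.11 in wild type.

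The order of the knockout livers was not the same for the 4 genes that fell. Knockout 4, the knockout library with the smallest mitochondrial share (11.8%), had the highest Clu and Atp1b1 of its group but the lowest Epcam. A fit of knockout 4 with the 3 wild-type libraries, added once the values were known, gave −1.83 ± 0.53 for Epcam and −1.18 ± 0.43 for Pkhd1, but −0.64 ± 0.28 for Atp1b1 and −0.44 ± 0.16 for Clu (log2 fold change ± SE; edgeR, adjusted p = 0.152, 0.214, 0.276 and 0.209). Adding the mitochondrial share to the model as a covariate gave −2.06 ± 0.65 for Epcam, −1.41 ± 0.56 for Pkhd1, −0.29 ± 0.32 for Atp1b1 and −0.34 ± 0.42 for Clu. Every knockout library had a larger share than every wild-type library, so the covariate fit cannot separate the share from genotype. With the covariate edgeR called no member and 0.00% of all tested genes. It gave an unadjusted p under 0.05 to 2 members and to 1146 of 13304 tested genes. No other tool was run on these fits. These differences between members were not tested.

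As a set, the 4 calls depended on the libraries used. The number of members called was 0 without knockout 1, knockout 2, wild type 2 or wild type 4, where 5.90%, 7.20%, 6.03% and 4.57% of all tested genes were called. In each of these 4 fits edgeR gave an unadjusted p under 0.05 to 4 members. Over all tested genes it did so for 3540 of 13616, 3880 of 13599, 3435 of 13713 and 3444 of 13783, in the same order. It was 3 without knockout 4 and 2 without wild type 11, against 29.4% and 12.3% of all tested genes. DESeq2 and limma-voom on all 6 libraries both called the same 4 genes, where DESeq2 called 20.6% and limma-voom 18.1% of all tested genes.

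**Figure D3:**
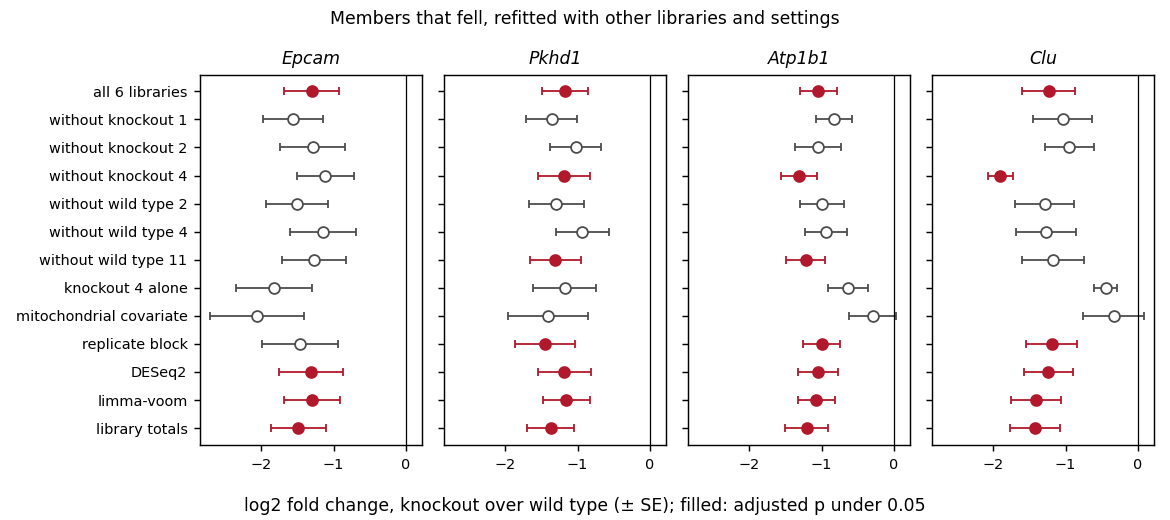
Log2 fold change, knockout over wild type, ± SE (horizontal axis) of the 4 genes that fell, in the fit of all 6 libraries and in 12 other fits (rows), filled where the adjusted p was under 0.05. All values are below 0, and those of Clu and Atp1b1 are nearest to 0 with knockout 4 alone and with the mitochondrial covariate.

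Few other genes of bile duct cells passed the test. Of 27 further biliary genes 20 passed the low-count filter, of which 2 fell and 0 rose, against 17.0% of all tested genes called, with a median log2 fold change of −0.29. Aqp1, a water channel of duct cells and of endothelium, fell to 21.5 ± 6.40 CPM in knockout, against 62.2 ± 11.3 CPM in wild type (SD, n = 3 each; −1.54 ± 0.24 SE; edgeR, adjusted p = 0.00578). Dsg2, a desmosomal cadherin that hepatocytes also make, fell (−0.83 ± 0.17). Tspan8, an epithelial tetraspanin of low level, was at −1.66 ± 0.68 and did not pass (edgeR, adjusted p = 0.116). Onecut1 also did not pass at −3.20 ± 1.09, a value set by wild type 4 with 46.3 CPM, where the other 5 libraries had 1.29 to 2.14 CPM. Library totals and the replicate block were among the settings in which Onecut1 was called, as a fall. Krt18, a keratin of simple epithelia that hepatocytes also make, was at 0.70 ± 0.22 (edgeR, adjusted p = 0.0514), with 169 to 233 CPM in knockout and 102 to 160 CPM in wild type. DESeq2 and limma-voom called its rise. So did edgeR with the filter of at least 1 CPM, the scaling without mitochondrial genes, the replicate block or no low-count filter. The main edgeR fit and those with library totals or the mitochondrial covariate did not. Ano1, a chloride channel, was at 0.75 ± 0.34 and did not pass (edgeR, adjusted p = 0.151), although every knockout library lay above every wild-type library. Tspan8, Onecut1, Krt18 and Ano1 were named after their values were seen. Among the 7 genes below the filter were Sctr, the secretin receptor, and Gpbar1, a bile acid receptor.

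**Figure D4:**
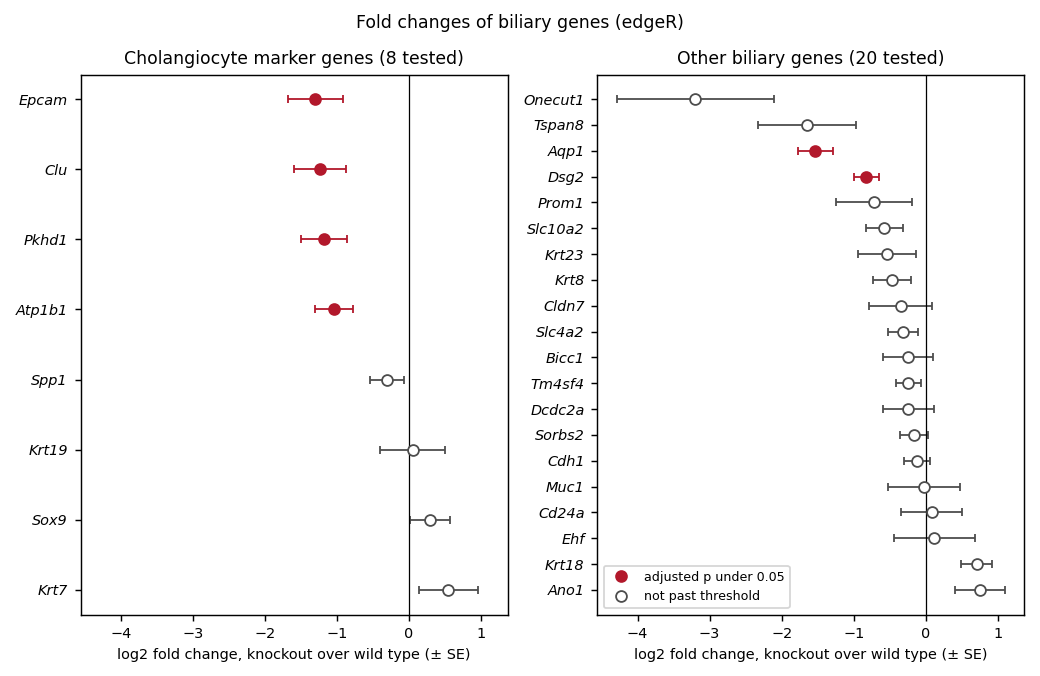
Log2 fold change, knockout over wild type, ± SE (horizontal axis) for the 8 tested cholangiocyte markers (left) and 20 other biliary genes (right), filled where edgeR's adjusted p was under 0.05. On the left 4 genes lie between −1.30 and −1.04, and on the right Aqp1 and Dsg2 are called at −1.54 and −0.83.

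Genes that work with the members were read from lists of their partners. Of 3 tested genes of other Na,K-ATPase subunits, 2 rose and 0 fell, too few to set against the 17.0% of all tested genes. They were Fxyd1 (0.999 ± 0.20), which rose to 635 ± 130 CPM in knockout, against 318 ± 33.6 CPM in wild type, and Fxyd5 (1.79 ± 0.38), both regulators of the pump. Of 12 tested genes of ductal secretion, 1 fell (Aqp1) and 0 rose, or 8.33% called against 17.0% of all tested genes.

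Of 14 cilium and polycystic disease genes, which stand beside Pkhd1, 1 rose and 1 fell, a share of 14.3% against 17.0% of all tested genes. Lrp5, a Wnt co-receptor, fell (−0.99 ± 0.18), and Nek8, a ciliary kinase, rose (0.91 ± 0.28). Of 17 tested genes of biliary fate control 2 rose and 2 fell (23.5%, against 17.0% of all tested genes). Hes1, a target of Notch, rose to 20.3 ± 1.94 CPM in knockout, against 5.58 ± 0.79 CPM in wild type (1.86 ± 0.20), while the receptor gene Notch2 fell (−1.01 ± 0.22). Cyr61, a target of YAP, rose (1.18 ± 0.24), and Tgfbr2, a TGF-beta receptor, fell (−0.86 ± 0.20). Ctgf, another YAP target of this list, was at −0.16 ± 0.33 and did not pass (edgeR, adjusted p = 0.76). It was named after its value was seen. Of 18 tested junction and keratin genes 2 rose and 3 fell (27.8%, against 17.0% of all tested genes): Dsp (−1.47 ± 0.30), Dsg2 and Cldn2 (−1.22 ± 0.27) were lower, and Cldn3 (0.89 ± 0.20) was among the higher ones. None of 9 tested osteopontin receptors passed with edgeR, DESeq2 or limma-voom. Of the 9, 2 had an unadjusted p under 0.05 with edgeR, as had 4526 of all 13304 tested genes. The most abundant, Itgb1, was at −0.39 ± 0.18, and Itgb5 at −0.03 ± 0.18.

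Genes whose levels over the 6 libraries were most like those of a member that fell were picked by Pearson's r of log2(CPM + 0.5) among 11880 tested genes. For Epcam these were Sc5d (r = 0.988), Atp8b1 (0.985) and Ephb4 (0.982). Pkhd1 was most like Vgll4 (0.996), Pclo (0.991) and Med23 (0.991). The genes closest to Clu were Cyp3a11 (0.9995, of a family with near-identical copies), Tsta3 (0.999) and Las1l (0.997), and those closest to Atp1b1 were Grsf1 (0.9995), Timm29 (0.999) and Polr1c (0.998). The 6 points of each correlation share their libraries and fall into 2 genotypes.

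Markers of other liver cells also moved with genotype, and their counts stand against the same 17.0% of all tested genes. Counts with an unadjusted p under 0.05 stand against 4526 of all 13304 tested genes (edgeR). Of 10 sinusoidal endothelial markers 5 fell and 0 rose, among them Oit3 (−1.45 ± 0.26), Lyve1 (−1.68 ± 0.32), Kdr (−0.92 ± 0.21) and Clec4g (−0.81 ± 0.21), and their sum was 181 to 319 CPM in knockout and 270 to 351 CPM in wild type. Of 8 tested lymphocyte and neutrophil markers 5 rose and 0 fell, with a sum of 15.3 to 30.4 CPM in knockout and 6.03 to 8.78 CPM in wild type. None of 10 macrophage markers passed with edgeR, DESeq2 or limma-voom, and none had an unadjusted p under 0.05. Their sum was 174 to 366 CPM in knockout and 228 to 339 CPM in wild type, and Gpnmb and Trem2 were below the filter. Of 13 stellate and fibroblast markers none passed with edgeR or limma-voom, 1 passed with DESeq2 and 3 had an unadjusted p under 0.05 with edgeR, with sums of 244 to 361 CPM in knockout and 155 to 288 CPM in wild type.

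None of 4 tested mesothelial and 9 tested pancreatic acinar markers passed with edgeR, DESeq2 or limma-voom or had an unadjusted p under 0.05. The mesothelial sum was 136 to 234 CPM in knockout and 199 to 337 CPM in wild type. Most of it was Krt8, so the sum does not follow the other mesothelial markers. Of these, Msln, Upk3b and Gpm6a were at 0.66 ± 0.84, 0.93 ± 0.77 and 0.14 ± 0.52 (log2 fold change ± SE), each highest in knockout 1. Acinar markers summed to 29.0 to 36.4 CPM in knockout but to 1.53 to 78.7 CPM in wild type, where Ctrb1, a digestive protease, was at 19.4 CPM in wild type 2 and at 1.60 CPM or less in the other two. Hepatocyte markers had 1 rise (Serpina1c, 1.52 ± 0.25, of a family with near-identical copies) and 1 fall (Cps1, −1.52 ± 0.29) among 14 with edgeR. DESeq2 called 5 of the 14 and limma-voom 4, against 20.6% and 18.1% of all tested genes. With edgeR 6 had an unadjusted p under 0.05, as had 4526 of all 13304 tested genes. The part of these cell types and of the mitochondrial share in the falls of Epcam, Pkhd1, Clu and Atp1b1 was not tested. The covariate fit above cannot separate the mitochondrial share from genotype.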

How the data were processed

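The authors deposited raw counts per gene, as whole numbers with no normalization, in 1 column per mouse. Per the labels' protocols, total RNA was made into libraries by SMARTer mRNA-Seq chemistry, and the submitters' processing notes name mm10. For the aligner, counter, annotation and strandedness, nothing is given in the sources used here. Reads carry no molecular identifiers, so counting intervals and floors of 3 counts cover counting error only.

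Counts were tested with edgeR 4.0.16 in R 4.3.3 (TMM, filterByExpr, quasi-likelihood F test, no covariate, Benjamini-Hochberg over 13304 genes, two-sided). Rose and fell are kept for an adjusted p under 0.05. The SE was derived from the fold change and its F statistic, and 95% intervals use the t distribution of the fit. DESeq2 1.42.0 and limma 3.58.1 (voom) were alternatives, beside other scalings and filters, a mitochondrial covariate, a replicate block and leaving out each library. Coordinates, exon lengths and 50-base words came from GENCODE M21 on the same build, where 54079 of 54232 identifiers matched.

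The members and gene lists were chosen with earlier results of these data known. All members are named, then up to 4 called genes of each other list by smallest p, or the 2 most abundant where none was called, and the 3 genes most like each member. Some genes are not reported here and were left out of the lists. Each library counts as a sample because each came from 1 mouse. Libraries of 1 genotype differed by a chi-square of 21.0 to 171 per degree of freedom. That value rests on raw totals, so differences in mitochondrial share can add to it. Nothing says how the livers were sampled, so p-values cover only the variation among these 6 samples, part of which may be technical.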

Additional observations from a re-analysis of the deposited data

How the results depend on the processing

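Across the 15 other fits, 82 of the 119 refitted member values kept their direction and side of the threshold, 28 lost their call and 9 changed sign, all 9 being Krt19. These 9 were −0.43 with knockout 4 alone, −0.16 with library totals, −0.085 with limma-voom, −1.10 with the mitochondrial covariate, −0.0002 with no low-count filter and −0.37 with the replicate block, and the rest came from leaving out 1 library, which gave −0.52 to 0.30. Leaving out 1 library gave 630 to 4046 genes called, 0 to 3 members called, 1 to 4 other biliary genes called and a log2 ratio of −1.75 to −0.92 for the summed level of the members, against −1.18 with all libraries. That ratio was −0.39 without Clu, Spp1 and Atp1b1. With the mitochondrial covariate edgeR called 0 genes, 0 members and 0 other biliary genes, and 1146, 2 and 4 of them had an unadjusted p under 0.05; no other tool was run with it. With knockout 4 alone, added after seeing the data, 25 genes were called, with 0 members and 0 other biliary genes, of which 3 and 4 had an unadjusted p under 0.05. There the single knockout is assumed to vary like the wild types. With no low-count filter 5 other biliary genes were called, against 2. The cause of these changes was not tested.

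Numbers 2 and 4 occur in both genotypes. Deviations from the group means correlated at −0.049 for number 2 and 0.058 for number 4, and no label says what equal numbers mark, so they were not treated as pairs. The replicate block called 1686 genes, 3 members (Epcam lost its call at −1.47, adjusted p = 0.0651) and 4 other biliary genes. At most 59 counts of Epcam, Krt19 or Krt7 in a library limit what these genes can show.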
